A study of Mus musculus with 15 samples.

Results

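The 9 genes described here are known as genes of 2-cell-like cells and lie outside the Zscan4 family: Zfp352, Dub1, Tdpoz3, Tdpoz4, Sp110, Gm5662, Gm8300, Eif1a and Arg2. They were taken by symbol from the 26061 rows of the gene table, in which 9 of 9 were found. Each had reads in all 15 libraries, and 9 of 9 were among the 19490 genes with reads in at least 5 libraries that entered the tests. They had been chosen by their measured differences between the groups of these same libraries, in all 3 comparisons. The group differences of the members are therefore a description. No p-value is given for a single member, and the counts of members called stand beside the share of all genes, with nothing read from them.

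E14 cells are mouse embryonic stem cells (ESCs) with the strain background 129/Ola, kept here in serum and LIF on gelatin without feeder cells. Total RNA depleted of rRNA was sequenced in 3 groups of 5 libraries. Cells of the shScr group carried a non-targeting short hairpin RNA (shRNA), those of the shTet1 group an shRNA against Tet1 and those of the shTet2 group an shRNA against Tet2. TET1 and TET2 are enzymes that oxidise methylated cytosine in DNA. All 3 groups had been infected with lentivirus, put under puromycin 24 hours later and harvested after 3 days of it. Each enzyme was targeted with 1 hairpin in 1 cell line, so that off-target effects of a hairpin and the loss of the enzyme cannot be told apart. Nothing in the labels says that replicates were separate cultures, so the spread between libraries may be partly technical.

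A small and changing fraction of the cells in an ESC culture passes through a 2-cell-like state, in which genes that the embryo first transcribes at the 2-cell stage are expressed again. The transcription factor DUX is a known activator of this programme. Long terminal repeats (LTRs) of the endogenous retrovirus MERVL, annotated as MT2_Mm, act as promoters for many of its genes, while MERVL-int is the internal part of the virus. In RNA of whole cultures, fewer 2-cell-like cells and less RNA per such cell cannot be told apart.

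To look for MERVL LTR sequence at the starts of the members, the forward primer with which the study amplified this LTR was searched for in RefSeq promoter windows of the GRCm38.p6 build. Windows ran from 250 bases before to 50 bases after each start. For the members, windows of Zfp352, Dub1 (Usp17la in RefSeq), Tdpoz4 and Sp110 were found. The other 5 had no window and could not be searched. The 20 bases of the primer were present without a mismatch in 1 of the 2 windows of Sp110, with their first base 50 bases before the start. They were also present in the window of Gm4340, another 2-cell-like gene. In the lines below, capitals mark the bases equal to the primer.
MERVL LTR forward primer: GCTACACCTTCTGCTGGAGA
Sp110, chr1:85603917-85603946 of GRCm38.p6, minus strand: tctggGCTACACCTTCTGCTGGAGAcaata
Gm4340, chr10:104193984-104194013 of GRCm38.p6, plus strand: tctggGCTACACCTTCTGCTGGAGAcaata
Gm8994, chr6:136327483-136327512 of GRCm38.p6, plus strand: tctggGaTAaACCTTCTGCTGGAGAcaata
Zfp352, chr4:90218763-90218792 of GRCm38.p6, plus strand: cctggaCacgcCtTTCTGCTGGAGgcggat

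Sp110 and Gm4340 shared all 30 letters shown. Gm8994, also from the list of other 2-cell-like genes, had 2 mismatches to the primer at 51 bases before its start. Zfp352 had 7 mismatches, and the best match was 9 mismatches away in Tdpoz4, 10 in Dub1 and 10 in the second window of Sp110. Tdpoz1, from the same list as Gm8994, also had 7. How often the best match of a window has 7 mismatches was not counted, so nothing is read from that of Zfp352. Among all 32851 windows, 18 (0.0548%) held the primer on the strand of the gene, and 19 did on either strand. These 18 windows belonged to 17 of 27025 genes. The same 30 bases of Sp110 lay at chr1:87500492-87500521 in mm9, the build of the deposited files. The start of this Sp110 transcript lay 5074 bases upstream of the start that the GENCODE vM1 annotation of mm9 gives for Sp110. A window without the primer says only that these letters were not in it.

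Reads in genes ranged from 15258291 to 35432425 per library. The targets were lower in their own group, with normalised Tet1 reads in shTet1 at 27.8% of shScr and normalised Tet2 reads in shTet2 at 26.6%. Marker lists were summed as RPM, scaled to all gene reads of a library. The 8 ESC markers, such as Pou5f1, Nanog and Esrrb, summed to 3731 to 3978 RPM in shScr libraries, to 4034 to 4670 in shTet1 and to 3173 to 3843 in shTet2. Each of the other lists held 4 markers, none of them at 0 in all libraries of a group. In the same order of groups, markers of primitive endoderm summed to 15.5 to 26.5, 10.6 to 19.7 and 5.73 to 16.6 RPM, those of trophoblast to 3.74 to 5.97, 1.98 to 3.21 and 4.01 to 11.0 RPM, and those of fibroblasts to 2.53 to 9.11, 4.88 to 7.64 and 8.86 to 10.2 RPM. The 9 members summed to 916 to 1664, 545 to 1373 and 1780 to 2475 RPM. The part of other cell types in the results was not tested. In every group, replicates 1 and 2 stood apart from replicates 3 to 5 along the first principal component of the deviations from the group means, which held 37.9% of their variance. The labels give no batch, and of the 2 RNA extraction methods they name, do not say which library had which. Differences within each set of replicates are therefore given beside those over all 5.

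Values below are variance-stabilised values of the deposited table, which approach log2 of the normalised reads for well-covered genes and have 4.25 as the value of 0 reads. Differences on this scale understate the change of genes with few reads, so that the share of normalised reads is given as well.

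Zfp352 encodes a zinc-finger protein and is a retrogene, known as one of the first genes of the embryo to be transcribed. In mm9 it spans chr4:89885511-89892393 on the plus strand. Zfp352 in shScr was 7.06, 7.94, 8.06, 7.60 and 7.53 in replicates 1 to 5. The shTet1 libraries gave 5.94, 6.20, 7.03, 7.03 and 7.23, and the shTet2 libraries 8.29, 8.77, 8.40, 8.55 and 7.94. Only shTet1 replicate 5 reached above the lowest shScr library, and only shTet2 replicate 5 came down to the shScr range, while shTet1 and shTet2 did not overlap. Relative to shScr, Zfp352 differed by −0.95 in shTet1 (SE 0.25, 95% confidence interval −1.48 to −0.42) and by 0.75 in shTet2 (SE 0.25, interval 0.22 to 1.28). In the order shScr, shTet1 and shTet2, its normalised reads averaged 169 ± 52.1, 75.2 ± 37.9 and 305 ± 70.9 (SD of 5 libraries).

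Dub1 encodes a deubiquitinating enzyme of the Usp17-like family, which removes ubiquitin from proteins, and spans chr7:112005523-112011181 on the plus strand. Dub1 in shScr was 7.18, 7.52, 7.91, 7.74 and 8.38. In shTet1 it was 6.70, 6.32, 7.46, 7.46 and 7.63, and in shTet2 8.28, 8.87, 9.51, 8.82 and 9.05. Replicates 3 to 5 of shTet1 lay within the shScr range, and shTet2 replicate 1 lay just under the highest shScr library. Dub1 differed from shScr by −0.63 in shTet1 (SE 0.27, interval −1.20 to −0.06) and by 1.16 in shTet2 (SE 0.27, interval 0.59 to 1.73). Normalised reads were 59.8% of shScr in shTet1 and 247% in shTet2.

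Tdpoz3 and Tdpoz4 encode proteins with a TRAF and a BTB/POZ domain, a pairing otherwise known from the ubiquitin ligase adaptor Spop, and lie near each other on chromosome 3. Each is annotated as a single exon, Tdpoz3 at chr3:93629942-93631039 and Tdpoz4 at chr3:93600320-93601432, both on the plus strand. Their coding sequences were 76.9% identical. Bases 116 to 145 are shown as an example, with differing bases in capitals. They are more alike than the coding sequences as a whole, so they do not show how close reads of the genes are.
Tdpoz3: GtattacCagccCagtgttctcattagagg
Tdpoz4: AtattacAagccTagtgttctcattagagg

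Tdpoz3 in shScr was 6.53, 7.89, 7.63, 7.07 and 7.84. Replicates 1 to 5 of shTet1 gave 5.58, 5.83, 6.73, 6.44 and 7.07, and those of shTet2 gave 8.62, 9.11, 8.43, 8.62 and 8.78. All 5 shTet2 libraries lay above all shScr and all shTet1 libraries. Tdpoz3 differed from shScr by −1.06 in shTet1 (SE 0.29, interval −1.66 to −0.46) and by 1.32 in shTet2 (SE 0.29, interval 0.73 to 1.92). Between shTet2 and shTet1 it had the largest difference of the 9 members, 2.38 (interval 1.79 to 2.98), which is 7.28 times the normalised reads. Tdpoz4 in shScr was 6.67, 7.38, 7.48, 7.04 and 7.39. Its shTet1 values were 5.28, 5.67, 6.78, 6.46 and 6.77, and its shTet2 values 7.70, 8.11, 8.35, 8.51 and 7.78. The shTet2 libraries again lay above all others, and shTet1 replicates 3 and 5 overlapped shScr. Tdpoz4 in shTet1 had 41.0% of the normalised reads of shScr (interval of the difference −1.58 to −0.43), and in shTet2 it differed from shScr by 0.90 (SE 0.27, interval 0.32 to 1.47). The lowest count of any member in any library was 14 reads of Tdpoz4 in shTet1 replicate 1, so that counting error is part of that value.

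Gm5662 and Gm8300 are predicted genes on chromosome 12 that encode proteins like the translation initiation factor eIF1A, which takes part in scanning for the start codon. Gm5662 spans chr12:89509084-89562433 on the minus strand and Gm8300 spans chr12:88855266-88859203 on the plus strand. Their 435 coding bases differed in 8, an identity of 98.2%. Bases 79 to 108 are shown as an example, with the differing base in capitals.
Gm5662: gtgtttaaagaatatgggcaagagtatgcT
Gm8300: gtgtttaaagaatatgggcaagagtatgcC

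The identity of both to Eif1a was lower (94.0% for Gm5662 and 94.9% for Gm8300), and that to the X-linked Eif1ax lower again (84.8% and 85.1%). Gm5662 in shScr was 12.67, 13.25, 14.19, 13.56 and 14.07. The shTet1 values were 10.74, 11.49, 12.93, 12.51 and 13.64, against 14.36, 14.75, 14.33, 14.74 and 14.77 with shTet2. The shTet1 libraries spread widely, with replicates 3 and 5 within the shScr range and the others below it, while all 5 shTet2 libraries lay close together above shScr. Gm5662 differed from shScr by −1.29 in shTet1 (SE 0.40, interval −2.13 to −0.45) and by 1.04 in shTet2 (SE 0.40, interval 0.20 to 1.88). As normalised reads, these were 12799 ± 5051, 6155 ± 4383 and 24867 ± 3732 for shScr, shTet1 and shTet2 (SD of 5 libraries).

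Gm8300 in shScr was 11.32, 11.80, 12.78, 12.13 and 12.65. The libraries of shTet1 had 9.40, 9.98, 11.49, 11.18 and 12.17, and those of shTet2 had 13.09, 13.39, 12.77, 13.19 and 13.31. Replicate 3 of shTet2 lay just below the highest shScr library, and the other 4 lay above. Gm8300 differed from shScr by −1.29 in shTet1 (SE 0.39, interval −2.11 to −0.47) and by 1.02 in shTet2 (SE 0.39, interval 0.19 to 1.84).

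Eif1a, the gene of the translation initiation factor itself, did not have this pattern. Eif1a in shScr was 13.31, 13.66, 13.59, 13.10 and 13.72. Libraries of shTet1 had 13.08, 13.26, 13.49, 13.09 and 13.91, and libraries of shTet2 had 13.30, 13.37, 13.38, 12.89 and 13.61. The 3 groups overlapped throughout. The differences were −0.11 for shTet1 against shScr (SE 0.18, interval −0.48 to 0.26), −0.17 for shTet2 against shScr (interval −0.54 to 0.20) and −0.06 for shTet2 against shTet1 (interval −0.42 to 0.31). Normalised Eif1a reads in shTet1 and shTet2 averaged 93.6% and 88.9% of shScr. Among the eIF1A-like members, Eif1a thus went against the label of a gene that moves with the 2-cell-like state in these libraries.

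Sp110 encodes a nuclear body protein related to Sp100 and Sp140, and spans chr1:87473474-87495392 on the minus strand in the mm9 annotation. Sp110 in shScr was 7.52, 7.83, 6.35, 6.42 and 6.48. In shTet1 the values were 6.03, 6.65, 5.97, 5.99 and 6.03, and in shTet2 8.98, 9.22, 7.07, 7.25 and 6.84. The shScr libraries overlapped each of the other groups, while shTet1 and shTet2 did not overlap, and the order shTet1, shScr, shTet2 held in all 5 replicate numbers. Sp110 differed from shScr by −0.79 in shTet1 (SE 0.42, interval −1.66 to 0.09) and by 0.95 in shTet2 (SE 0.42, interval 0.07 to 1.83). Between shTet2 and shTet1 the difference was 2.76 within replicates 1 and 2 and 1.06 within replicates 3 to 5.

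Arg2 encodes the mitochondrial arginase, which splits arginine into ornithine and urea, and spans chr12:80231764-80257288 on the plus strand. Arg2 in shScr was 7.49, 7.76, 8.21, 8.36 and 8.30. In shTet1 it was 6.18, 6.71, 7.76, 7.39 and 8.13, and in shTet2 8.21, 8.25, 8.59, 8.42 and 8.84. Replicates 1 and 2 of shTet2 lay within the shScr range, and replicates 3 to 5 lay above it. Arg2 differed from shScr by −0.79 in shTet1 (SE 0.29, interval −1.40 to −0.18) and by 0.44 in shTet2 (SE 0.29, interval −0.17 to 1.05), the smallest of the 8 members that were higher in shTet2.

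**Figure D1:**
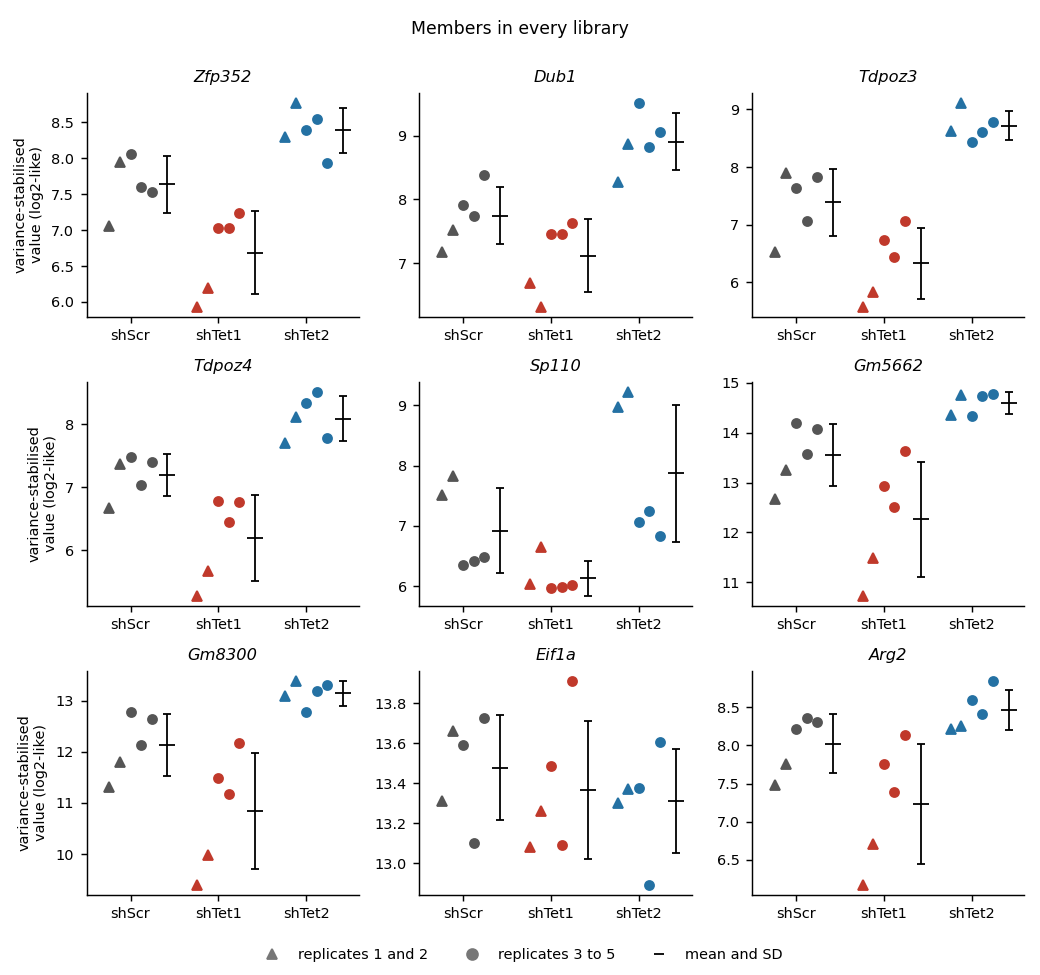
Variance-stabilised value (vertical axis, log2-like) of each member in each of the 15 libraries, by group (horizontal axis). Triangles are replicates 1 and 2, circles are replicates 3 to 5, and the black bars give the mean and SD of 5 libraries. In 8 members the shTet2 libraries sit above the shTet1 libraries, and Eif1a overlaps in all groups. Sp110 is higher in the triangles of each group, except that shTet1 replicate 1 is about level with the circles.

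The members were then read across the comparisons, beside all genes. Calls were made in limma with Benjamini-Hochberg adjustment over all genes. Between shTet1 and shScr, 0.0718% of the 19490 genes were called (adjusted p under 0.05), and 0 of 9 members. At an unadjusted p under 0.05 there were 7 members, beside 2295 of all genes. With the replicate number as a block, an alternative fit, 935 genes were called, and 7 of 9 members, all but Sp110 and Eif1a. Without shTet1 replicate 5, the highest shTet1 library in 7 of the 9 members, 3 members were called, and 171 of all genes. All 9 members were lower in shTet1, with a median difference of −0.95 beside 0.01 over all genes. Within replicates 1 and 2 the median of the members was −1.43. The 2 groups did not overlap, with shTet1 lower, in 0 of 9 members and in 1.11% of all genes, a share too small to set 9 genes against.

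Between shTet2 and shScr, 0.39% of all genes were called, and 1 of 9 members, Tdpoz3. When each library was left out in turn, the call was kept in 2 of 15 fits. It was also lost with median centring, which lowered every difference of this comparison by 0.11. Higher in shTet2 were 8 of 9 members, with a median of 0.95 beside 0.04 over all genes. In 3 members, Tdpoz3, Tdpoz4 and Gm5662, all 5 shTet2 libraries lay above all shScr libraries, as they did in 1.75% of all genes.

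Between shTet2 and shTet1, 4.24% of all genes were called, and 8 of 9 members, all but Eif1a. The median difference of the members was 1.79 beside 0.01 over all genes, and normalised reads of the 8 members were 2.41 to 7.28 times as high in shTet2. The shTet2 libraries lay above all shTet1 libraries in these 8 members and in 3.6% of all genes. Leaving out shTet2 replicate 1 or 2 took away the call of Sp110, and leaving out shTet1 replicate 2 that of Arg2. The size of the difference depended on the replicate set. In replicates 1 and 2 it was 3.55 for Gm8300, 3.44 for Gm5662, 3.16 for Tdpoz3, 2.46 for Zfp352, 2.43 for Tdpoz4, 2.06 for Dub1 and 1.79 for Arg2. In replicates 3 to 5 the same genes had 1.48, 1.59, 1.86, 1.20, 1.54, 1.61 and 0.86, all smaller and all above 0. Against shScr, shTet2 differed by 1.68 and 0.57 in the 2 sets for Gm8300 and by 1.59 and 0.68 for Gm5662, but by 1.22 and 1.12 for Dub1 and 0.88 and 0.91 for Tdpoz4. For shTet1 against shScr, the differences of these 7 genes lay between −1.87 and −0.84 in replicates 1 and 2 and between −0.91 and −0.49 in replicates 3 to 5. Eif1a differed by 0.17 and −0.20 between shTet2 and shTet1. The comparisons of both knockdowns with shScr share the same control libraries, and since the members were picked with these comparisons known, nothing follows from their counts.

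**Figure D2:**
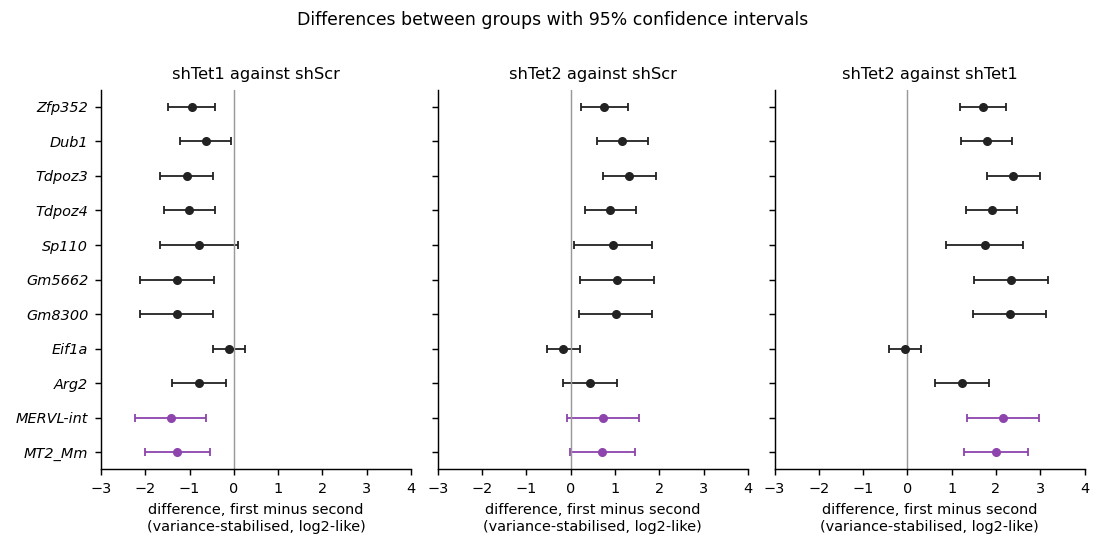
Difference between groups (horizontal axis, variance-stabilised, log2-like) of the 9 members and, in purple, of MERVL-int and MT2_Mm (vertical axis), with 95% confidence intervals of limma as bars. The 8 members other than Eif1a lie on the left of 0 in shTet1 against shScr and on the right of 0 in the other panels.

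Levels were compared between members per length, as normalised reads per kb of annotated exon. In shScr, Gm5662 was highest with 5661 ± 2234, followed by Eif1a with 4001 ± 697 and Gm8300 with 2565 ± 1015 (SD, n = 5 each). Next came Arg2 with 162 ± 45.7, Tdpoz3 with 130 ± 56.2 and Tdpoz4 with 102 ± 28.1. Zfp352 with 72.5 ± 22.4 and Dub1 with 70.4 ± 26.4 were lower still, and Sp110 was lowest with 14.8 ± 9.95. Neighbours in this order overlapped in range, except that Gm8300 lay above Arg2 and Dub1 above Sp110. In shTet1, Eif1a with 3745 ± 973 was above Gm5662 with 2722 ± 1939, while in shTet2 Gm5662 with 10998 ± 1651 and Gm8300 with 4922 ± 779 were both above Eif1a with 3559 ± 606. Over the longest transcript in place of all exons, Sp110 was 38.3 in shScr, because its 8 transcripts span 6680 exon bases and the longest holds 2583.

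**Figure D3:**
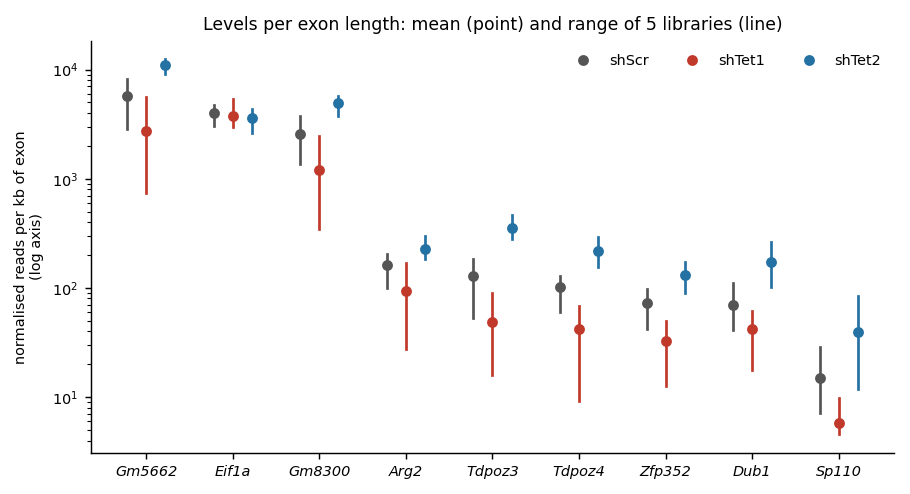
Normalised reads per kb of exon (vertical axis, log scale) of each member in the 3 groups, with the mean of 5 libraries as a point and their range as a line. In each group, Gm5662, Eif1a and Gm8300 lie above the other 6 members in all libraries.

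The mapping kept a read with several equally good places at 1 of them, so the share of each transcript that recurs at other loci was measured. The stretches used were shorter than the reads as sequenced, so these shares are not shares of ambiguous reads. Of all 50-base stretches of its transcript, Arg2 had 0% and Eif1a 4.81% with a second place in mm9. Zfp352 had 8.94%, Dub1 23.2%, Gm8300 39.0% and Tdpoz4 41.2%. The highest shares were those of Sp110 with 48.6%, Tdpoz3 with 66.2% and Gm5662 with 78.7%. Gm5662 shared 60.5% of its stretches with Gm2016, another eIF1A-like gene, and 11.0% with Gm8300, but 1.59% with Eif1a. Levels of Gm5662 and Gm2016 are therefore uncertain in how they divide, while those of Eif1a and Arg2 are little affected. On the other strand, Arg2 shares 19.96% of its exon bases with Vti1b, and Gm8300 shares 9.78% on the same strand with BB287469, also an eIF1A-like gene. Libraries were directional, but whether the counting used strand was not stated.

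The same families outside the 9 members were read from a list of 32 other 2-cell-like genes, of which 20 were in the table under these symbols and 20 were tested. None was called in limma with Benjamini-Hochberg adjustment between shTet1 and shScr (17 at an unadjusted p under 0.05) or between shTet2 and shScr (17 likewise). Between shTet2 and shTet1, 19 of 20 were called, all higher in shTet2, beside 4.24% of all genes. Calcoco2, the remaining gene, was called with the replicate block (difference 0.84, adjusted p = 0.000183). This made 20 of 20, beside 2178 of the 19490 genes. The list was written with earlier results of these data known, so its counts are no independent evidence of a direction. The median difference was 1.51 beside 0.01 over all genes. The Usp17-like genes Dub1a, Usp17l5 and Dub2a were higher by 2.23, 2.17 and 1.75, next to 1.79 of Dub1. The eIF1A-like genes Gm2016, BB287469 and Gm4027 rose by 2.37, 2.32 and 2.18, next to 2.33 of Gm5662 and 2.31 of Gm8300. Tdpoz5 and Tdpoz1 rose by 1.18 and 0.80, but averaged only 7.35 and 4.62 normalised reads in shTet1. Gm4340, which holds the LTR primer at its start, rose by 2.26 and Gm8994 by 1.44. The remaining genes that passed were Ubtfl1, Gm7978, Cml2, Lmx1a, Gm428, Spz1, Abcb5, P4ha2 and Usp26, with differences between 0.84 and 1.79. Leaving out each library in turn kept the calls of Tdpoz1, Abcb5 and Usp26 in 10, 11 and 8 of 15 fits. With the replicate block, the count was 13 of 20 between shTet1 and shScr, all 13 lower. Of the 19490 genes, 935 were called there, 440 of them lower.

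Relatives that are not known as 2-cell-like genes were read for contrast. The initiation factor genes Eif1ax and Eif1ad differed between shTet2 and shTet1 by −0.09 (interval −0.34 to 0.17) and −0.18 (−0.56 to 0.20), much as Eif1a did. Spop and Spopl, which like the Tdpoz genes have a TRAF and a BTB/POZ domain, differed by 0.16 (−0.11 to 0.42) and −0.10 (−0.43 to 0.23). Zfp353, with 94.8% identity to Zfp352 in the coding sequence, rose by 1.37 (adjusted p = 0.000759), and 8.48% of the stretches of Zfp352 were also found in Zfp353. Sp140 rose by 1.17 (adjusted p = 0.00330), from 5.99 ± 4.49 to 38.6 ± 17.3 normalised reads, and Sp100, at 0 to 5 reads in any library, differed by 0.21 (−0.10 to 0.53). Arg1, the cytosolic arginase, rose by 0.71 (adjusted p = 0.0113) between 0 to 4 reads per library in shTet1 and 4 to 22 in shTet2.

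Of 30 regulators of the 2-cell-like state, 28 were in the table. Between shTet2 and shTet1, 2 were called in limma, beside 4.24% of all genes. They were Dux with a difference of 1.27 (adjusted p = 0.00126) and its relative Duxbl with 0.94 (adjusted p = 0.0133). Dux averaged 78.1 ± 11.0, 39.5 ± 17.3 and 139 ± 44.6 normalised reads in shScr, shTet1 and shTet2 (SD of 5 libraries). None of the 28 was called against shScr. At an unadjusted p under 0.05 in limma there were 3 in shTet1 and 4 in shTet2, beside 2295 and 2257 of the 19490 genes. The median difference of the regulators was between −0.05 and −0.02 in the 3 comparisons. With the replicate block, 3 were called between shTet1 and shScr, beside 935 of the 19490 genes. All 3 were lower in shTet1, namely Dux with −0.68, Lin28a with −0.64 and Rif1 with −0.55 (adjusted p = 0.0324, 0.0159 and 0.0232). Between shTet2 and shTet1 the block added Lin28a, higher by 0.63, and Rnf2 with −0.34, which made 4, beside 2178 of the 19490 genes. The counts are a description, and nothing is read from them about the regulators. Lin28a, Rif1 and Rnf2 are named because of their values with the block. Of the Zscan4 genes, 5 were in the table. Their differences from shScr lay between −1.30 and −1.24 for shTet1 and between 0.95 and 0.98 for shTet2, next to medians of −0.95 and 0.95 in the 9 members.

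To see whether the members varied together beyond the groups, the deviation of each library from its group mean was correlated between members over the 15 libraries. The libraries share cell line and, by number, replicate, so these values describe them and carry no test. The median r of the 36 pairs was 0.70. Among the 7 members other than Eif1a and Sp110, the 21 pairs had r between 0.56 and 0.99, with a median of 0.80, which was 0.52 with the 2 replicate sets kept apart. Gm5662 and Gm8300 had the highest r, 0.99, and Arg2 followed Gm5662 with 0.93. Eif1a had a median r of 0.50 with the others (0.60 with the sets kept apart), and Sp110 had −0.25, with values from −0.59 for Dub1 to 0.05 for Zfp352.

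The place of Sp110 changed when the replicate sets were kept apart. On average, replicates 1 and 2 of Sp110 lay above replicates 3 to 5 in each group, by 1.26 in shScr, 0.34 in shTet1 and 2.05 in shTet2. In shTet1 only replicate 2, at 6.65, stood above replicates 3 to 5, while replicate 1 was level with replicate 5 at 6.03. The eIF1A-like Gm5662 lay the other way, by −0.97 in shScr, −1.91 in shTet1 and −0.06 in shTet2, and Arg2 did by −0.67, −1.31 and −0.38. With deviations taken from the mean of each replicate set within its group, r between Dub1 and Arg2 went from 0.78 to 0.08. That of Sp110 with Tdpoz4 was 0.76, with Zfp352 0.65 and with Gm5662 0.50, and its median over the other members was 0.41. The median of all 36 pairs was then 0.51. These deviations rest on 6 means over 15 libraries and have less freedom than the values above.

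**Figure D4:**
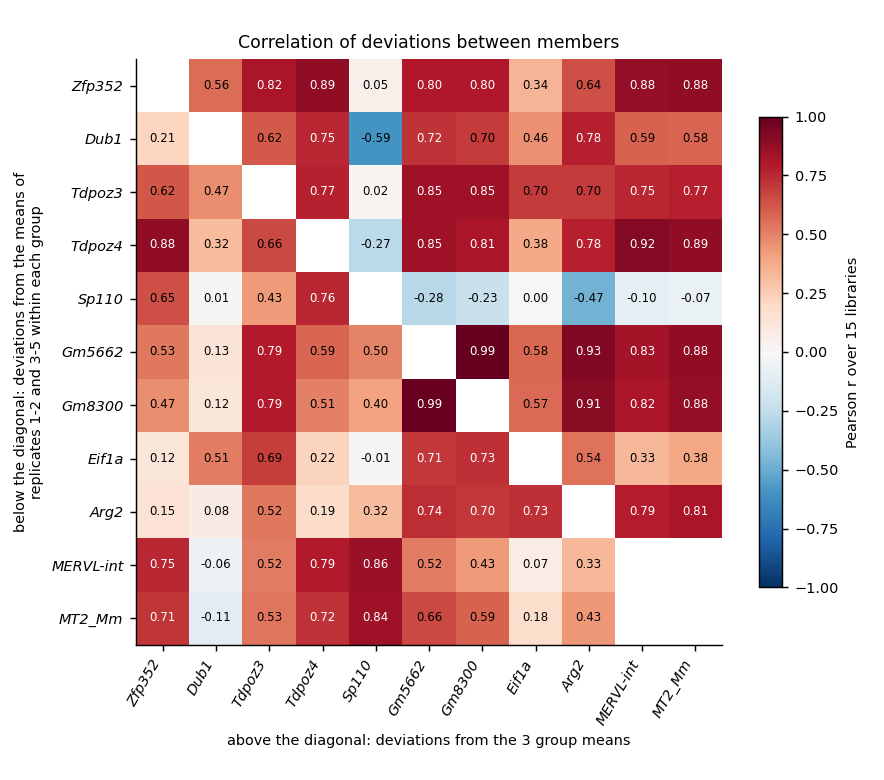
Pearson r over 15 libraries between members, MERVL-int and MT2_Mm, of deviations from the group means (above the diagonal) and from the means of replicates 1 and 2 or 3 to 5 within each group (below the diagonal). Sp110 is near or below 0 with the other members above the diagonal and mostly positive below it.

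Over all its copies, MERVL-int had 363274 ± 79860, 159353 ± 90177 and 594430 ± 98629 normalised reads in shScr, shTet1 and shTet2 (SD of 5 libraries). It differed from shScr by −1.43 in shTet1 (interval −2.24 to −0.62) and by 0.73 in shTet2 (interval −0.08 to 1.53). In limma over 1187 repeat classes, neither MERVL-int nor MT2_Mm was called against shScr. Both were called between shTet2 and shTet1 (adjusted p = 0.0145 each). Within groups, the deviations of MERVL-int followed the mean of the 9 members with r = 0.86, and those of MT2_Mm with r = 0.89. These values were 0.64 and 0.69 with the replicate sets kept apart. Single members differed in this. Tdpoz4 had r = 0.92 with MERVL-int, Zfp352 0.88, Gm5662 0.83 and Dub1 0.59, and Eif1a had 0.33. Sp110, the member in which the LTR primer was found among those with a RefSeq window, had r = −0.10 with MERVL-int. Within the replicate sets, Sp110 had the highest value, 0.86, followed by Tdpoz4 with 0.79 and Zfp352 with 0.75. Gm5662 and Tdpoz3 then had 0.52 each, Gm8300 0.43 and Arg2 0.33, while Dub1 had −0.06 and Eif1a 0.07. The value of Sp110 pools all sets, which were not alike. In replicates 3 to 5 of shScr, Sp110 was 6.35, 6.42 and 6.48 while MERVL-int was 18.68, 18.46 and 18.39. In those of shTet1 the 2 also ran in opposite directions, whereas in those of shTet2 they ran together. Both differed most between shTet1 replicates 1 and 2. Library by library, shTet1 replicates 1 and 2 were lowest for MERVL-int, at 15.35 and 16.47 against 17.60 or more in replicates 3 to 5, and they were also lowest of all 15 libraries for 7 of the 9 members. Sp110 in shTet1 was higher in replicate 2, at 6.65, than in any of replicates 3 to 5.

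**Figure D5:**
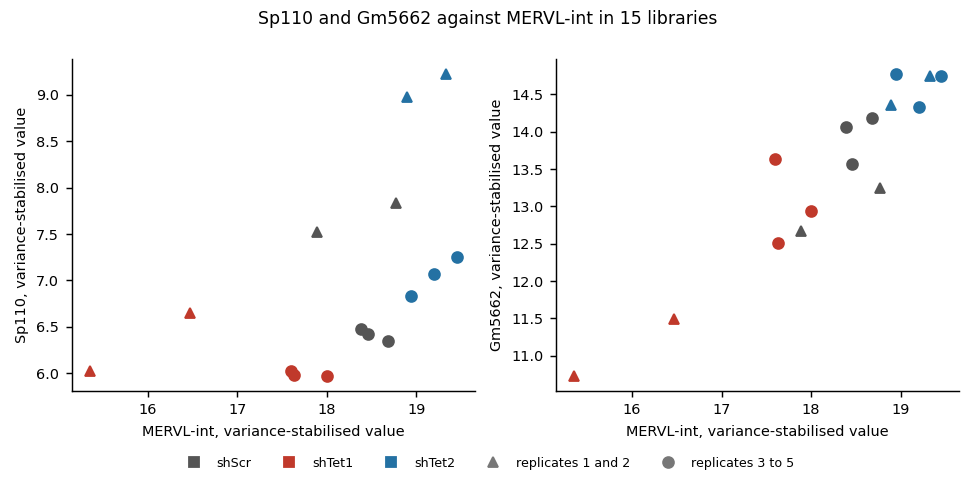
Variance-stabilised values of Sp110 (left) and Gm5662 (right) against that of MERVL-int (horizontal axis) in 15 libraries. Colours are groups, triangles replicates 1 and 2 and circles replicates 3 to 5. Gm5662 is higher where MERVL-int is higher. Sp110 lies higher in the triangles than in the circles of each group, except that shTet1 replicate 1 is about level with the circles.

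Of 12030 other genes well above the table minimum, those whose within-group deviations were most like the mean of the members were Gm2075 (r = 0.96), Gm2016 (0.96), Spesp1 (0.96), Gm10696 (0.96) and Gm6804 (0.95), over 15 libraries. Gm2016 is the gene that shares most stretches with Gm5662. Spesp1, the gene of a sperm equatorial segment protein, averaged 8.04 ± 0.33, 7.19 ± 0.71 and 8.71 ± 0.21 in shScr, shTet1 and shTet2 (SD of 5 libraries). The 5 Zscan4 genes in the table had r between 0.88 and 0.91 with the same mean.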

How the data were processed

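RNA-seq of 15 libraries was read from the authors' gene and repeat tables. The authors trimmed reads, aligned them to mm9 with TopHat2 2.0.9 (Trim Galore 0.3.3 and TopHat2 as in the submitters' processing notes), counted them in Seqmonk and normalised them with DESeq2. The values deposited by the authors are variance-stabilised, on a log2 scale for well-covered genes. Here the transformation was undone, which gave whole reads within 0.1 for 100% of values, and normalised reads per library. Differences were fitted to these values in R 4.3.3 with the package limma 3.58.1 (lmFit, eBayes with a variance trend, all 15 libraries, group as the only term, two-sided), over 19490 genes above the table minimum in at least 5 libraries, with Benjamini-Hochberg adjustment and a threshold of 0.05. Repeat classes were fitted likewise. The fit was tested on simulated data with 200 changed genes.

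Within-group deviations of same-numbered libraries were correlated across genes, with 0.1 as the threshold. The r was 0.374 to 0.657 for shTet1 with shScr and 0.330 to 0.731 for shTet2 with shTet1, all over it. Between shTet2 and shScr 1 pair had 0.0079. Libraries of the same replicate set can correlate without being pairs, and shTet1 replicate 2 was most like shScr replicate 1. The block fit held all 15 libraries and is therefore only an alternative. Members and lists were chosen with earlier results of these data known. Genes named are the members, Tet1, Tet2, list genes with an adjusted p under 0.05 in any comparison, all relatives, both MERVL classes and the 5 genes most like the members, at least 2 units above the minimum. Lengths, positions and coding sequences came from GENCODE vM1 on mm9, promoter windows from RefSeq (GRCm38.p6), and identities from global alignment in Biopython 1.88. Alternatives were the filter, variance trend, groups in the fit, centring, quantile normalisation, array weights, log2 with a pseudocount of 1, voom, the replicate block, the replicate sets and leaving out each library.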

Additional observations from a re-analysis of the deposited data

Results flagged for a closer look

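Of 27 sets of 5 libraries (9 members in 3 groups), 1 held a library far from the others. Sp110 in shTet1 was 6.65 in replicate 2 and 5.97 to 6.03 in the other 4 libraries, a gap beyond the 95% critical value of 0.71 of the range in Dixon's test. Chance alone marks about 1 in 20 such sets.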

How the results depend on the processing

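The calls, medians and the correlation were recomputed under other settings. Of these, 343 values stayed within 1.5 times a count or within the spread between libraries and 76 moved. The causes were not tested. Counts of calls have no direction, so that reversals are not reported. With the replicate block (replicate numbers as pairs), genes called were 935 for shTet1 against shScr, 840 for shTet2 against shScr and 2178 for shTet2 against shTet1. Members called were 7, 5 and 8, other 2-cell-like genes 13, 13 and 20, and regulators 3, 2 and 4. The labels do not say that a replicate number marks a shared batch, and the block is only an alternative in every comparison. With replicates 1 and 2 against 3 to 5 as a term, genes called were 264, 266 and 1263, members 4, 3 and 8, and other 2-cell-like genes 9, 5 and 19. Array weights gave 56, 283 and 1246 genes, with 4 other 2-cell-like genes in shTet2 against shScr. There, voom on recovered reads also gave 4, beside 63 of all genes, and the fit of 2 groups only gave 5, beside 74 of all genes.

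In shTet1 against shScr (14 genes), the 2 compared groups alone gave 3 genes, and quantile normalisation and a filter on the mean gave 22 each. In shTet2 against shScr (76 genes), median centring gave 39 genes, quantile normalisation 45 and log2 of normalised reads 48. Of the members, 0 were called there with these 3 settings, with the filter on the mean and with a filter of 1 library. A difference of at least 1 unit was reached by 7, 28 and 271 of the genes called in the 3 comparisons. The members' median in shTet2 against shTet1 (1.79) was 2.33 on log2 of normalised reads, 2.41 with voom and 2.46 within replicates 1 and 2, and that in shTet1 against shScr was −1.43 within replicates 1 and 2. The median r between members was 0.51 with the replicate sets kept apart.

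Leaving out 1 library at a time gave 1 to 171 genes in shTet1 against shScr (171 without shTet1 replicate 5, 1 without shScr replicate 2 or shTet1 replicate 1, 2 or 4), 10 to 99 in shTet2 against shScr (10 without shTet2 replicate 2) and 512 to 902 in shTet2 against shTet1. Members called ranged over 0 to 3, 0 to 1 and 7 to 8, other 2-cell-like genes over 0 to 4, 0 to 3 and 16 to 19, and the median r over 0.59 to 0.74, lowest without shTet1 replicate 5.

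Few reads limit Tdpoz1, Tdpoz5, Sp140, Sp100 and Arg1, and Sp110 and Tdpoz4 in shTet1. Shared sequence limits Gm5662, Tdpoz3 and Sp110 (23.2% of its stretches in more than 5 places) and, less, Tdpoz4 and Gm8300.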
